A study of Homo sapiens with 6 samples.

Results

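The 10 genes described here set the fate of pyruvate and lactate: the lactate dehydrogenase subunits LDHA and LDHB, the lactate carriers SLC16A1 and SLC16A3, the mitochondrial pyruvate carrier subunits MPC1 and MPC2, the pyruvate dehydrogenase kinases PDK1 and PDK2, and the pyruvate dehydrogenase phosphatases PDP1 and PDP2. They were chosen by name, with earlier results of these data in view, from 61015 genes that had rows in the count table, of which 20442 passed the expression filter. All 10 passed it. Their levels in the sorted fractions are the values they were selected on, so these are given as a description and carry no p-value.

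LncRNA sequencing of total RNA was carried out on MDA-MB-231, an established line of human breast cancer that lacks the hormone and HER2 receptors and has a mesenchymal character. All libraries came from paclitaxel (PTX)-resistant cells of this line. Cells with high aldehyde dehydrogenase activity in a live-cell dye assay (ALDH+) were sorted as breast cancer stem-like cells (BCSC, n = 3 libraries), and ALDH− cells were sorted as non-BCSC (n = 3 libraries). No library of drug-sensitive cells was among them, the stem-like state was defined by the sort alone, and the sources used here do not say whether the 3 libraries of a group came from separate cultures, so that the spread between them may be technical.

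The fate of pyruvate is decided at the mitochondrial membrane. Glycolysis ends in pyruvate, which lactate dehydrogenase can reduce to lactate in the cytosol while regenerating the NAD+ that glycolysis needs. Lactate leaves or enters the cell through monocarboxylate transporters. Pyruvate instead enters the mitochondrion through a carrier made of MPC1 and MPC2, where the pyruvate dehydrogenase complex turns it into acetyl-CoA. The kinases (PDK) switch this complex off by phosphorylation and the phosphatases (PDP) switch it back on, so that the balance of both sets how much pyruvate is oxidised. Tumour cells commonly send much of it to lactate, and the hypoxia factor HIF1, which the study places downstream of its lncRNA, is known to activate LDHA, PDK1 and SLC16A3.

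The libraries held 15925943 to 21215352 counts in BCSC and 9898588 to 12263667 in non-BCSC, so that 3 counts, the limit that a count of 0 allows, stood for 0.141 to 0.303 CPM of the unscaled library total and covered counting error only. The CPM values of genes and isoforms use TMM-scaled library sizes. The 5 genes listed as marks of MDA-MB-231 (VIM, CD44, MSN, AXL and CAV1) summed to between 6706 and 7987 CPM in BCSC and between 4232 and 5746 in non-BCSC. The 6 luminal and receptor genes listed (ESR1, PGR, ERBB2, GATA3, EPCAM and CDH1) summed to 81.0 to 93.2 CPM in BCSC and 103 to 141 in non-BCSC. Most of this was ERBB2, which overlapped between the groups. PGR was lower in BCSC (log2 fold change -4.19, edgeR adjusted p = 0.00218), and GATA3 lay higher in BCSC without overlap but did not pass (0.148). The 3 leukocyte markers PTPRC, CD3E and CD14 summed to between 0.783 and 1.45 CPM in BCSC and between 14.2 and 23.4 in non-BCSC. Nearly all of the non-BCSC sum was PTPRC (13.2, 22.6 and 20.7 CPM). CD3E was at most 0.990 CPM in any library, and CD14 overlapped between the groups. The part of these markers in the results was not tested. The summed level of 3 ALDH1A genes was 26.0 to 34.9 CPM in BCSC and 19.5 to 31.1 in non-BCSC, and the fractions overlapped in it, while its members went different ways. ALDH1A3 was 29.8 ± 3.98 CPM in BCSC and 17.5 ± 5.74 in non-BCSC without overlap (log2 fold change 0.77, edgeR adjusted p = 0.0577). ALDH1A1 and ALDH1A2, at no more than 4.46 CPM in any library, were lower in BCSC (log2 fold changes -3.63 and -2.70, adjusted p = 0.0446 and 0.0257), and neither passed with background removed (0.0568 and 0.0638). The libraries also differed in ways that touch every gene below. Olfactory receptor genes, which these cells are not known to use, took 37.1 to 146 CPM in BCSC and 521 to 1183 in non-BCSC. Across the tested genes the log2 fold change followed the GC content of the gene, with Spearman's rho = 0.545, and this relation across genes, which are not independent replicates, fell to -0.065 once GC content and transcript length were corrected for in each library. That correction moved the median log2 fold change of all genes from -0.05 to 0.20 and the share of calls that were higher from 44% to 63.1%, and removing a background estimated from olfactory receptors gave 62.3%. The log2 fold changes of the 10 genes under these settings are therefore shown beside the TMM values.

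Among the 10 genes, LDHA, PDK2 and PDP1 lay higher in every BCSC library than in any non-BCSC library, and LDHB, SLC16A1 and PDK1 lay lower. The other 4 (SLC16A3, MPC1, MPC2 and PDP2) overlapped between the groups. Over all tested genes, 24.2% lay higher in BCSC without overlap and 27.9% lower, beside the 3 and 3 of the 10 genes here. The call rule of an adjusted p under 0.05 with a fold beyond 2 was met by 8.85% of all genes as higher and 11.3% as lower, and among the 10 genes by PDK2 alone, as higher. Because the same contrast chose the genes, nothing is read from these counts. The median log2 fold change (BCSC over non-BCSC) of the 10 genes was -0.05, the same as that of all tested genes. In bulk RNA a lower level can come from fewer cells that hold a transcript or from less of it per cell, and these cannot be told apart.

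**Figure D1:**
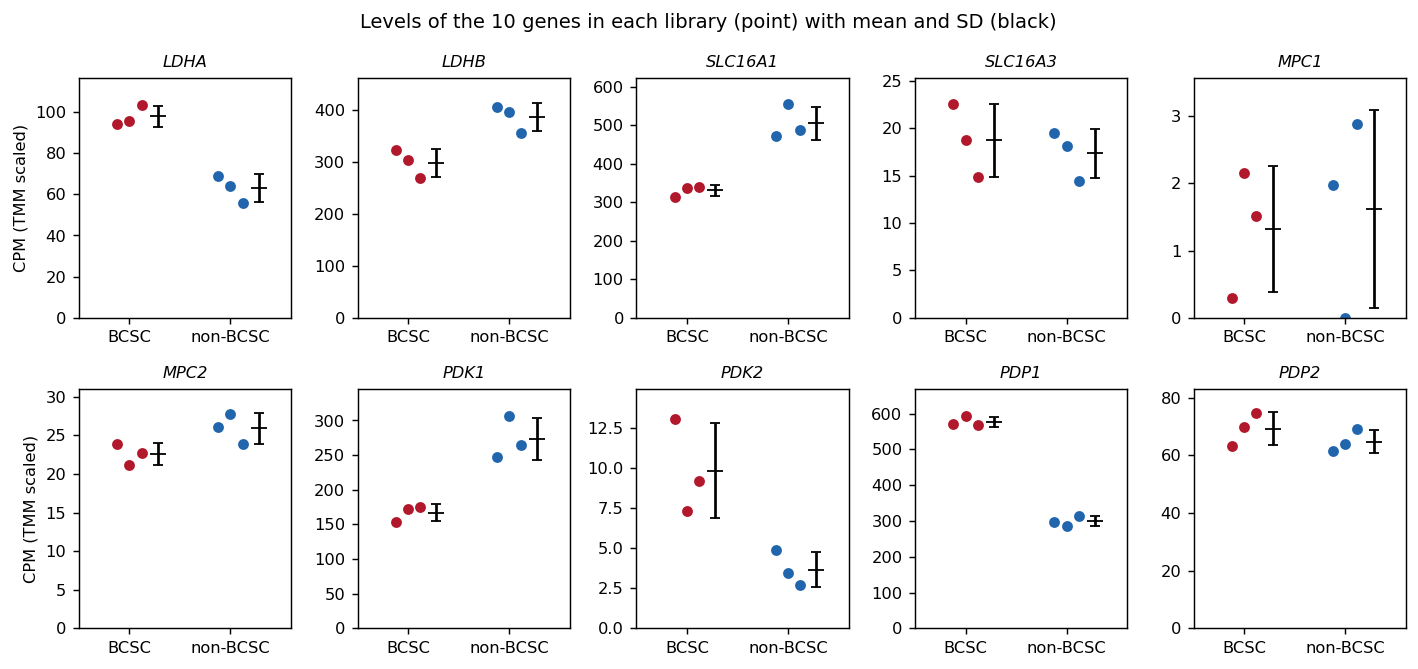
Level of each of the 10 genes in CPM (vertical axes, each from 0) in the 3 BCSC (red) and 3 non-BCSC (blue) libraries, with the mean and SD of each group in black. LDHA, PDK2 and PDP1 sit higher in all BCSC libraries, LDHB, SLC16A1 and PDK1 sit lower, and the groups overlap for SLC16A3, MPC1, MPC2 and PDP2.

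Lactate dehydrogenase works as a tetramer of LDHA and LDHB subunits. LDHA, which favours the reduction of pyruvate to lactate, lies on chromosome 11 (18416107 to 18429972, plus strand, GRCh37). It held 94.5, 95.6 and 104 CPM in BCSC 1 to 3 and 69.2, 64.1 and 55.9 CPM in non-BCSC 1 to 3. The lowest BCSC library stood well clear of the highest non-BCSC library. The means were 97.9 ± 5.05 and 63.0 ± 6.68 CPM (SD, n = 3 each), a log2 fold change of 0.63 (SE 0.13). It stayed higher when any library was left out (0.58 to 0.76), when background was removed (0.42) and after the GC and length correction (1.24).

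LDHB, whose subunits favour the conversion of lactate back to pyruvate, lies on chromosome 12 (21788276 to 21910791, minus strand). Its levels were 322, 304 and 269 CPM in BCSC and 407, 396 and 356 CPM in non-BCSC. All 3 non-BCSC libraries were above all 3 BCSC libraries, with means of 299 ± 27.0 and 386 ± 26.6 CPM and a log2 fold change of -0.37 (SE 0.10). The direction turned after the GC and length correction, to 0.40, whereas removal of background gave -0.61.

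The ratio of LDHA to LDHB within a library does not depend on the scaling between libraries, and the GC content of both genes is similar (45.9% and 43.7%). LDHA counts were 0.293, 0.314 and 0.385 times the LDHB counts in BCSC and 0.170, 0.162 and 0.157 times in non-BCSC. The ratio was thus 2.02 times higher in BCSC, a difference of 1.01 on the log2 scale (pooled SD 0.15). It was 0.86 after the GC and length correction, 1.03 with background removed and 1.05 from protein-coding transcripts alone. In both fractions LDHB had the higher transcript level per kb. It was 227 ± 14.5 CPM per kb against 54.1 ± 3.58 for LDHA in BCSC, and 299 ± 19.8 against 35.1 ± 3.16 in non-BCSC. Protein subunits were not measured.

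The isoforms behind these sums were not the same in every library. Isoform shares are the authors' estimates from reads that isoforms share, and vary more than gene sums. LDHA-203 (361 codons) led LDHA in all 6 libraries, with 77.9%, 92.0% and 81.6% of the counts in BCSC, against 85.0%, 70.5% and 56.8% in non-BCSC. LDHA-205, the isoform annotated as canonical (332 codons), had 0 counts in 5 libraries and 105 counts in non-BCSC 3. LDHA-219, which also encodes 332 codons, took between 2.66% and 17.1%. For LDHB, LDHB-211 (341 codons) held 93.5% to 99.1% in 5 libraries, and in BCSC 1 it held 45.1% beside 53.1% for LDHB-203 (334 codons), which took at most 4.20% elsewhere. The 6 annotated LDHA pseudogenes with counts together held 0.410% to 0.730% as many counts as LDHA in BCSC and 3.86% to 7.38% in non-BCSC, and how reads were split among these near-identical copies is uncertain. For LDHB the 3 pseudogenes held at most 1.06%.

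The start sites of LDHA-205 and LDHA-203 lie at different promoters. These are shown because the isoform with most of the estimated counts does not start at the promoter with ACGTG, the core motif of the hypoxia factor. The split between the isoforms is an estimate, so which promoter these cells used was not measured. Sequences are the RefSeq windows from 250 bases before to 50 bases after a start site on GRCh38.p14, plus strand, at chr11:18394313-18394612 and chr11:18396101-18396400. Capitals mark ACGTG, the core that HIF1 binds, or GCGTG, its variant, on either strand (CACGT or CACGC as printed), with overlapping matches merged, so that CACGTG holds a match on each strand.
LDHA upstream promoter: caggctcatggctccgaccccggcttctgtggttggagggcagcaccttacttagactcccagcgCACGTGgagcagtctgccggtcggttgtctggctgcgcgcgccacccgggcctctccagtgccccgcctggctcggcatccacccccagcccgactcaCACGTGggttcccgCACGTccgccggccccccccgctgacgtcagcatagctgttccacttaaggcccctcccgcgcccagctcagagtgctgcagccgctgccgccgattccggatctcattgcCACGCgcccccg
LDHA downstream promoter: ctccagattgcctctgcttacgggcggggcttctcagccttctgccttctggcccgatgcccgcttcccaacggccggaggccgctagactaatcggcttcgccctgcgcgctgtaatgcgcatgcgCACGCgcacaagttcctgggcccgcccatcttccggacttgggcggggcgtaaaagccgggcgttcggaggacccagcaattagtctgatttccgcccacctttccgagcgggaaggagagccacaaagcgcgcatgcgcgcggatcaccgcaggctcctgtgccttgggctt
Placed on GRCh37 by exact match, the upstream window has its start site at the first base of LDHA-205, and LDHA-203 begins 1715 bases downstream of it. The downstream window holds the first base of LDHA-203, 73 bases before its RefSeq start site. The upstream window holds 5 matches to ACGTG and the downstream window 0. With GCGTG counted as well, they hold 6 and 1. Of the 35116 promoter windows that RefSeq lists, 21.4% hold ACGTG and 48.4% hold ACGTG or GCGTG, and a match is not evidence of binding.

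Of the lactate carriers, SLC16A1 was lower in BCSC and SLC16A3 overlapped between the groups. SLC16A1 (MCT1, chromosome 1, 113454469 to 113500215, minus strand) carries lactate and pyruvate in either direction with high affinity. It held 314, 338 and 340 CPM in BCSC and 472, 555 and 488 CPM in non-BCSC. No value of one group reached the other, and the means were 331 ± 14.2 and 505 ± 43.7 CPM, a log2 fold change of -0.61 (SE 0.10). The direction turned to 0.27 after the GC and length correction and was -0.85 with background removed.

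The split of SLC16A1 among isoforms separated the groups more widely than its sum. SLC16A1-201, the canonical isoform (500 codons), held 76.4%, 73.6% and 71.8% of the counts in BCSC, against 98.9%, 95.7% and 98.5% in non-BCSC. Its level was 244 ± 4.24 CPM in BCSC and 493 ± 33.7 in non-BCSC, a log2 fold change of -0.93 (SE 0.10). Most of the other BCSC counts went to SLC16A1-203 and SLC16A1-207, which encode the same 500 codons, and 2.90% to 4.43% went to SLC16A1-209, a retained intron. SLC16A1-203 had 702, 1202 and 23 counts in the BCSC libraries, against 2, 45 and 28 in non-BCSC. SLC16A1-207 had 505, 0 and 1293 counts in BCSC and 0 in each non-BCSC library. The split between SLC16A1-203 and SLC16A1-207 therefore changed from one BCSC library to the next, while the share of SLC16A1-201 stayed within a narrow range in each group. The antisense gene SLC16A1-AS1, which overlaps SLC16A1, went the other way, at 57.5 ± 3.30 CPM in BCSC and 33.0 ± 8.68 in non-BCSC (log2 fold change 0.80, SE 0.21, edgeR adjusted p = 0.018), under the fold minimum. Whether strand was used in the counting is not stated, so the reads of both genes cannot be fully told apart.

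SLC16A3 (MCT4, chromosome 17, 80175810 to 80219005, plus strand) is the exporter typical of glycolytic cells. It held 22.6, 18.7 and 14.9 CPM in BCSC and 19.5, 18.1 and 14.5 CPM in non-BCSC, and the groups overlapped. The log2 fold change was 0.11 (SE 0.26), and after the GC and length correction it became -1.41, the largest move by that correction among the 10 genes. SLC16A3 has the highest GC content of them, 65.6%. It also turned, to -0.05, when BCSC 1 was left out and when only protein-coding transcripts were summed. CSNK1D, a kinase gene on the opposite strand that overlaps it, was higher in BCSC (log2 fold change 1.03, SE 0.21, edgeR adjusted p = 0.00749).

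The count of SLC16A3 relative to SLC16A1 was 0.0719, 0.0554 and 0.0438 in BCSC, against 0.0413, 0.0327 and 0.0297 in non-BCSC. The ratio was higher in each BCSC library, by 0.71 on the log2 scale (pooled SD 0.31), but the lowest BCSC value lay close to the highest non-BCSC value. After the GC and length correction the difference was -1.67, so its direction depends on whether that correction is made. SLC16A3-210 (465 codons) led in all libraries, with 50.9% to 98.7% of the counts. In BCSC 2 the canonical SLC16A3-213, which encodes the same 465 codons, took 46.3% with 133 counts, and it had 0 counts in the other 5 libraries.

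The mitochondrial pyruvate carrier was the step with the fewest counts. MPC2 (chromosome 1, 167885913 to 167906310, minus strand) held 23.9, 21.1 and 22.7 CPM in BCSC and 26.1, 27.8 and 23.9 CPM in non-BCSC. The highest BCSC value and the lowest non-BCSC value were nearly equal, and the log2 fold change was -0.20 (SE 0.20), turning to 0.14 after the GC and length correction. MPC2-202 led in 5 libraries with 77.2% to 97.2% of the counts, and in BCSC 3 the canonical MPC2-201 led with 59.6%. Both encode 127 codons. DCAF6, on the opposite strand and overlapping MPC2, was lower in BCSC (log2 fold change -0.58, SE 0.11, edgeR adjusted p = 0.00481), within the fold minimum.

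MPC1, the partner subunit (chromosome 6, 166778407 to 166796501, minus strand), had 6, 33 and 25 counts in BCSC 1 to 3 and 24, 0 and 30 in the non-BCSC libraries. None of these counts fell on a protein-coding transcript. They belonged to MPC1-203, whose coding sequence is not defined, and in non-BCSC 3 also to MPC1-202, a retained intron with 26 counts. The level of 1.32 ± 0.94 CPM in BCSC and 1.62 ± 1.47 in non-BCSC gave a log2 fold change of -0.30 (SE 1.32), and in non-BCSC it ran from 0 to 3.58 times the level of olfactory receptors per kb. Since none of the counts lay on a protein-coding transcript, no difference in the coding mRNA of MPC1 can be read from them. The table also held 2998 transcripts that matched no entry of the annotation and were not analysed here, and these may include transcripts of the 10 genes.

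**Figure D2:**
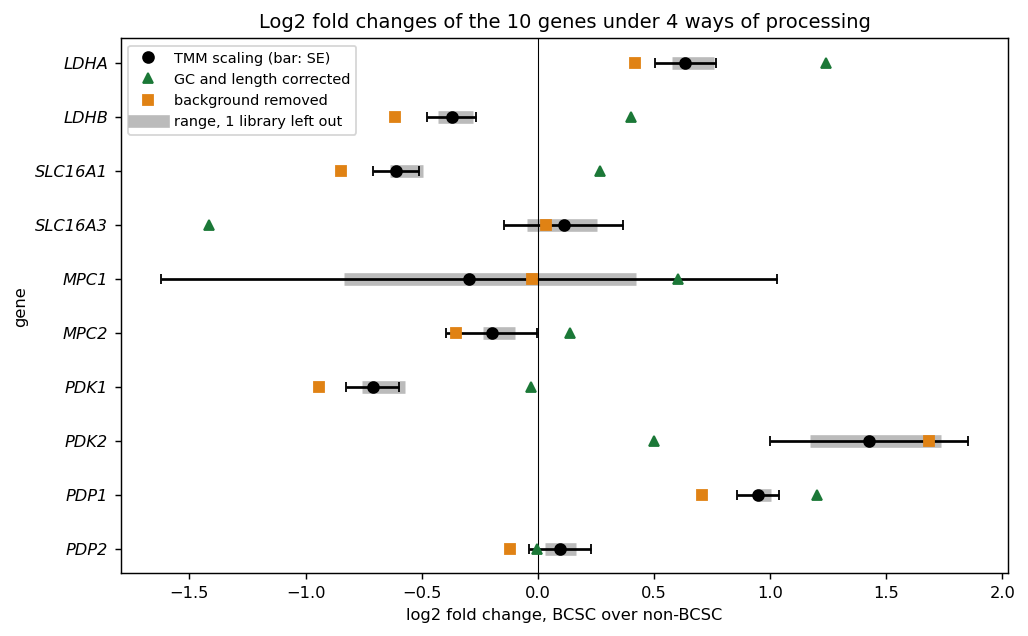
Log2 fold change of each gene, BCSC over non-BCSC (horizontal axis), with TMM scaling and its SE (black), after the GC and length correction (green triangles), with background removed (orange squares), and as the range over 6 fits with 1 library left out (grey). LDHA, PDK2 and PDP1 stay above 0 under each setting. PDK1 stays below 0 but lies close to it, at -0.03, after the GC and length correction. That correction takes LDHB, SLC16A1, MPC1 and MPC2 to above 0 and SLC16A3 and PDP2 to below 0.

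Of the kinases of the pyruvate dehydrogenase complex, PDK1 was lower and PDK2 higher in BCSC. PDK1 (chromosome 2, 173420101 to 173473397, plus strand), the kinase best known as a hypoxia target, held 153, 172 and 175 CPM in BCSC and 247, 307 and 265 CPM in non-BCSC. All BCSC libraries lay lower, with means of 167 ± 11.8 and 273 ± 30.7 CPM and a log2 fold change of -0.71 (SE 0.11). It ran from -0.76 to -0.57 with a library left out and was -0.94 with background removed. After the GC and length correction it was -0.03, close to 0. PDK1-201, the canonical isoform (436 codons), held 90.2% to 99.8% of the counts in 5 libraries and 69.6% in non-BCSC 2, where PDK1-203, which encodes the same 436 codons, held 29.6%.

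PDK2 (chromosome 17, 48172101 to 48189516, plus strand), a kinase of the family found in most tissues, was far less abundant. It had 266, 112 and 152 counts in BCSC 1 to 3, against 59, 39 and 28 in non-BCSC, which is 13.1, 7.31 and 9.19 CPM against 4.87, 3.45 and 2.69 CPM. The groups did not overlap, and BCSC 1 stood above the other two BCSC libraries. The means were 9.87 ± 2.96 and 3.67 ± 1.11 CPM, a log2 fold change of 1.43 (SE 0.43), the largest of the 10 genes. It ran from 1.17 without BCSC 1 to 1.74, was 1.68 with background removed, 1.71 from protein-coding transcripts and 0.50 after the GC and length correction. The gene did not meet the call rule in any of these 3 settings, and met it in 1 of the 6 fits that left out a library, the one without non-BCSC 1. In non-BCSC its level was 1.76 to 6.80 times that of olfactory receptors per kb, against 45.8 to 249 times in BCSC.

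PDK2 also differed in the isoforms that were counted. PDK2-203, the canonical isoform (407 codons), held 250, 94 and 130 counts in BCSC, or 94.0%, 83.9% and 85.5% of the gene, against 0, 0 and 19 in non-BCSC. PDK2-201, an isoform of 343 codons, held 54 and 11 counts in non-BCSC 1 and 2 and 0 in all other libraries. PDK2-206, a retained intron, took 25 of the 39 counts in non-BCSC 2, or 64.1% (95% Wilson interval 48.4% to 77.3%, counting error only). With so few counts in non-BCSC, these shares rest on little depth. PDK2-203 and PDK2-201 begin at separate promoters, shown here because PDK2-203 led PDK2 in BCSC and PDK2-201 was counted in non-BCSC alone, beside the promoter of PDK1-201, the leading isoform of PDK1. The windows lie on the plus strand of GRCh38.p14 at chr17:50094487-50094786 for PDK2-201, chr17:50095101-50095400 for PDK2-203 and chr2:172555840-172556139 for PDK1-201, with capitals as above.
PDK2-201 promoter: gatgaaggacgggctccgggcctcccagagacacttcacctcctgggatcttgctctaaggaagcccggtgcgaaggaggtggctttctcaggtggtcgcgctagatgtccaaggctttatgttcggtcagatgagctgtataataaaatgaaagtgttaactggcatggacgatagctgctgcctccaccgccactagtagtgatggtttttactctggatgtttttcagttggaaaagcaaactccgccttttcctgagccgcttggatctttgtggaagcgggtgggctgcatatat
PDK2-203 promoter: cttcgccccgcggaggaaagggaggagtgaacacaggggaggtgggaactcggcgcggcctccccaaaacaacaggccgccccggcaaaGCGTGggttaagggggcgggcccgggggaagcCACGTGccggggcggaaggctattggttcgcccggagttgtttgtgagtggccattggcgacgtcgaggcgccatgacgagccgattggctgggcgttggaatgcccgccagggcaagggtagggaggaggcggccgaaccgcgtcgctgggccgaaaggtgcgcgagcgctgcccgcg
PDK1-201 promoter: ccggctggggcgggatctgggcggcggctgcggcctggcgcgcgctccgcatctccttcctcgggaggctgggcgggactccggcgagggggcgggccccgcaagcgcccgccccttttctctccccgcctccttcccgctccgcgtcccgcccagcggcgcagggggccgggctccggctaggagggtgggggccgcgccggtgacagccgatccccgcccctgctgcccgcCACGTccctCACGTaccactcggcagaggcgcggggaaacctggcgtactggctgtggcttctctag
On GRCh37 each window's start site is the first base of the isoform it is named for, and the start sites of PDK2-201 and PDK2-203 lie 614 bases apart. The PDK2-203 window holds 2 matches to ACGTG and the PDK2-201 window 0. The PDK1-201 window also holds 2. Of the 10 genes, 8 had entries in the promoter table. LDHA, PDK1, PDK2, PDP2 and SLC16A3 had ACGTG in a window. That makes 5 of the 18 windows of the 8 genes, beside the share of 21.4% among all windows. With GCGTG counted as well it was 12 of the 18, beside 48.4% among all windows. SLC16A1 and PDP1 were not in the table.

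The count of PDK1 was 11.7, 23.5 and 19.1 times that of PDK2 in BCSC, against 50.8, 89.1 and 98.8 times in non-BCSC. The log2 difference was -2.12 (pooled SD 0.51), and the GC and length correction reduced it to -0.52. The GC content of PDK1 is 44.6% and that of PDK2 58.0%.

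PDP1, the phosphatase catalytic subunit that calcium stimulates, separated the groups with little spread within either. It lies on chromosome 8 (94870035 to 94938296, plus strand, GRCh37) and held 570, 593 and 567 CPM in BCSC and 298, 286 and 313 CPM in non-BCSC. Their means, 577 ± 14.5 and 299 ± 13.7 CPM, gave a log2 fold change of 0.95 (SE 0.09), just under the fold minimum. It was 0.95 to 1.0 with a library left out, 0.71 with background removed and 1.20 after the GC and length correction. In BCSC, PDP1 had the highest level per kb of the 10 genes, 319 ± 37 CPM per kb. In non-BCSC it had 130 CPM per kb, in a range that overlapped that of SLC16A1.

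More than 1 isoform made up PDP1, and PDP1-206 set the groups apart. This short isoform, with an incomplete coding sequence of 232 codons, had 2404, 2858 and 2856 counts in the BCSC libraries, against 93, 80 and 64 in non-BCSC. It took 20.8%, 31.4% and 30.5% of the gene's counts in BCSC, against 2.58%, 2.47% and 1.96% in non-BCSC. Its level was 159 ± 36.0 CPM in BCSC and 6.96 ± 0.77 in non-BCSC, a log2 fold change of 4.58 (SE 0.28). Among 26 tested transcripts of the 10 genes it was the one that met the call rule as higher and 0 met it as lower. Over all 46176 tested transcripts, 0.593% were called higher and 88 transcripts lower. The same contrast chose the genes, so nothing is read from these counts. Without its counts PDP1 still separated, at 451, 407 and 394 CPM in BCSC and 290, 279 and 307 in non-BCSC, with means of 418 ± 29.8 and 292 ± 14.2 and a ratio of 1.43. The CPM of 4 transcripts lay higher and of 3 lower in BCSC without overlap, 7 of 26, beside 32.5% of all tested transcripts.

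Most of the other PDP1 counts were on full-length isoforms, each of 537 codons. In BCSC 1 4 further incomplete isoforms also held 83 to 639 counts each. PDP1-203 held 33.7%, 32.1% and 34.8% in BCSC, against 55.4%, 53.1% and 97.6% in non-BCSC, at 193 ± 3.69 CPM against 208 ± 85.4. PDP1-201, the canonical isoform, held 22.8%, 17.5% and 27.8% in BCSC, against 7.76%, 44% and 0% in non-BCSC. PDP1-208 held 6.70% to 17.0% in BCSC, 34.0% in non-BCSC 1 and 0 counts in non-BCSC 2 and 3. The share of PDP1-203 varied little within BCSC, and those of the other two varied in both fractions.

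PDP2, the second phosphatase catalytic subunit (chromosome 16, 66912492 to 66929657, plus strand), held 63.2, 69.9 and 74.5 CPM in BCSC and 61.4, 63.9 and 69.1 CPM in non-BCSC. The groups overlapped, with a log2 fold change of 0.09 (SE 0.13), and background removal turned it to -0.12. It kept its direction in 10 of 14 alternatives. PDP2-201 (529 codons) held all PDP2 counts in the 3 non-BCSC libraries. In BCSC a short, incomplete isoform, PDP2-203 (103 codons), took 388, 209 and 9 counts, 30.3%, 19.5% and 0.731% of the gene.

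**Figure D3:**
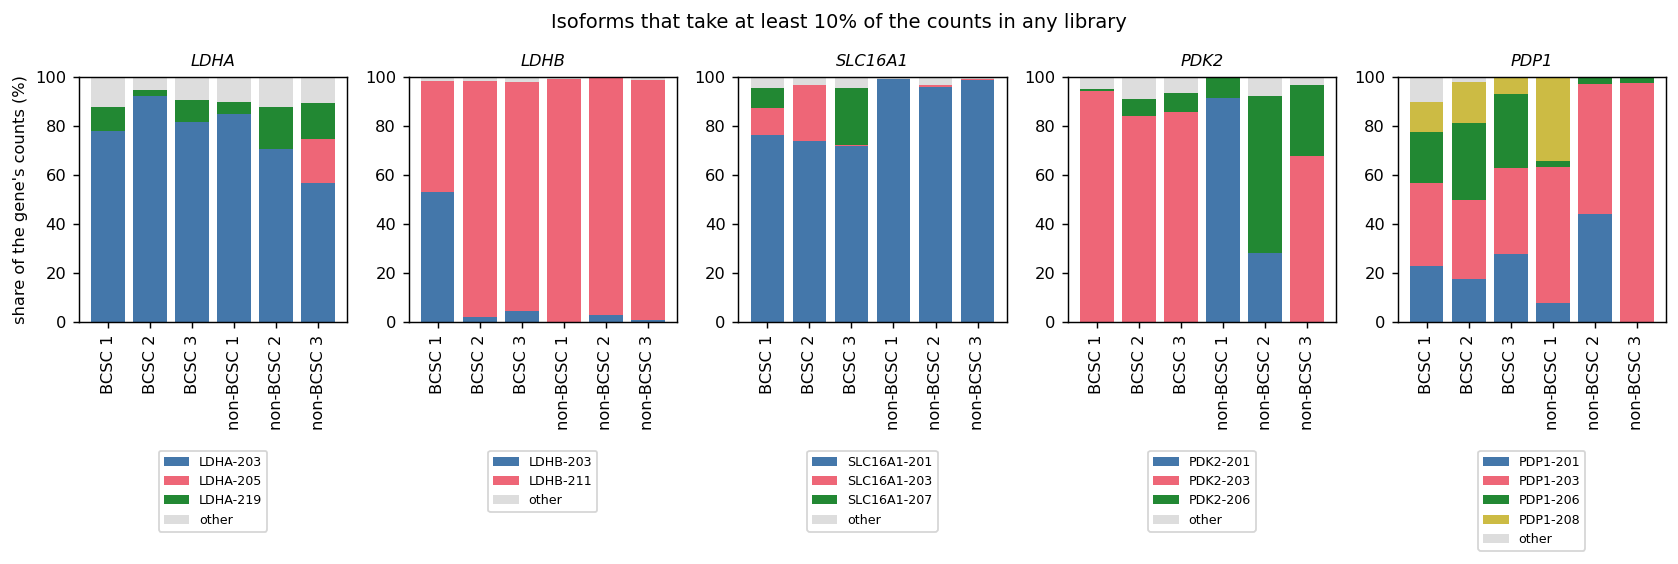
Share of each gene's counts (vertical axis, %) taken in each library by the isoforms of LDHA, LDHB, SLC16A1, PDK2 and PDP1 that reach 10% in any library, with all others in grey. PDP1-206 takes 20.8% to 31.4% in BCSC and at most 2.58% in non-BCSC, and SLC16A1-201 takes at most 76.4% in BCSC and at least 95.7% in non-BCSC.

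The count of PDP1 was 9.02, 8.49 and 7.61 times that of PDP2 in BCSC and 4.85, 4.48 and 4.54 times in non-BCSC, a log2 difference of 0.86 (pooled SD 0.10) that was 1.21 after the GC and length correction. The summed counts of PDK1 and PDK2 were 0.263, 0.270 and 0.288 times those of PDP1 and PDP2 in BCSC. In non-BCSC they were 0.702, 0.887 and 0.701 times as many. The log2 difference in this ratio was -1.47 (pooled SD 0.15), with BCSC at 0.361 times the ratio of non-BCSC. It was -1.04 after the GC and length correction, -1.47 with background removed and -1.47 from protein-coding transcripts alone. This ratio and that of LDHA to LDHB kept their direction and their order of size under each of these settings. PDP1-206 was part of the phosphatase sum in all of them, and the ratio without it was not computed. They are ratios of transcript counts of genes of unlike length and do not give enzyme activities.

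**Figure D4:**
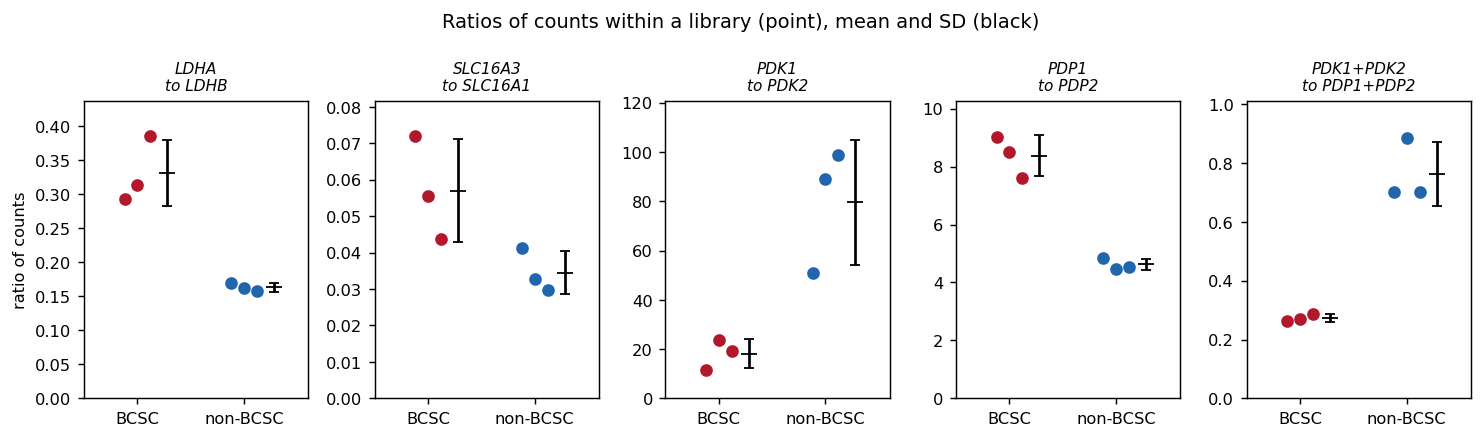
Ratio of counts between genes within each library (vertical axes, each from 0) for 5 ratios in the 3 BCSC (red) and 3 non-BCSC (blue) libraries, with mean and SD in black. The ratio of PDK1 plus PDK2 to PDP1 plus PDP2 is at most 0.288 in BCSC and at least 0.701 in non-BCSC. That of LDHA to LDHB is at least 0.293 in BCSC and at most 0.170 in non-BCSC.

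The order of the genes by level per kb of transcript changed between the fractions. In BCSC it ran from PDP1 (319 CPM per kb) through LDHB (227), SLC16A1 (89.6), LDHA (54.1), PDP2 (27.8), PDK1 (15.2), MPC2 (10.3), SLC16A3 (4.94) and PDK2 (4.18) to MPC1 (2.03). The ranges of the 3 libraries overlapped between PDP2 and PDK1 and between SLC16A3 and PDK2. In non-BCSC it ran from LDHB (299) through SLC16A1 (137), PDP1 (130), LDHA (35.1), PDK1 (28.8), MPC2 (11.9), PDP2 (9.26), SLC16A3 (4.02) and MPC1 (2.66) to PDK2 (2.46). Here the ranges overlapped between SLC16A1 and PDP1, LDHA and PDK1, SLC16A3 and MPC1, and MPC1 and PDK2. These levels divide each isoform's counts by its own length, so they also follow the estimated split among isoforms. PDP2 shows this, since its CPM differed little between the fractions and its level per kb was 27.8 against 9.26.

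To place the 10 genes among their partners, 43 other genes were listed in 5 groups, of which 33 were tested with edgeR across all genes. Of these 33, 4 rose in BCSC past the call rule (BSG, GPT2, PCK2 and SLC25A11) and 3 fell (SLC16A7, PDK4 and PDHA2). Over all tested genes 8.85% were called higher and 11.3% lower, so nothing is read from these counts. Of the 33, 19 did not pass the adjusted p. Without a fold minimum 7 rose and 7 fell, where 15.3% of all tested genes rose and 14.6% fell. The median log2 fold change of the 33 was 0.07, beside -0.05 for all tested genes.

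Among 9 other genes of lactate handling only 3 passed the filter. BSG (basigin), the chaperone that brings SLC16A1 and SLC16A3 to the cell surface, held 201, 136 and 123 CPM in BCSC and 83.9, 84.6 and 56.6 CPM in non-BCSC. It rose by 1.03 on the log2 scale (SE 0.21, edgeR adjusted p = 0.00802), was under the fold minimum without BCSC 1 (0.79) or non-BCSC 3 (0.88) and with RLE, DESeq2 or background removal (0.94, 0.98 and 0.81), and was -0.33 after the GC and length correction (adjusted p = 0.215). SLC16A7 (MCT2), a carrier of very high affinity, was 3.37 ± 0.79 CPM in BCSC and 12 ± 5.14 in non-BCSC. It fell by 1.83 on the log2 scale (SE 0.43, edgeR adjusted p = 0.0137), did not pass without BCSC 2 (adjusted p = 0.0652) or without non-BCSC 3 (0.0592), and was -0.91 after the GC and length correction (0.075). Its BCSC counts were all on transcripts not annotated as protein-coding, against 88.4% on protein-coding transcripts in non-BCSC. EMB, the other carrier chaperone, was 0.54 ± 0.94 and 5.12 ± 0.79 CPM and did not pass (adjusted p = 0.109). LDHC, LDHD, LDHAL6A, LDHAL6B, SLC16A8 and HCAR1 had too few counts to be tested.

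All 9 other genes of the pyruvate dehydrogenase complex and its control were tested, and 2 fell and 0 rose past the call rule. PDK4, the kinase induced by fasting, was 7.27 ± 1.12 CPM in BCSC and 18.4 ± 5.82 in non-BCSC. It fell by 1.34 on the log2 scale (SE 0.33, edgeR adjusted p = 0.015), did not pass without BCSC 1 (0.0572), BCSC 2 (0.0583) or non-BCSC 3 (0.0608), and was -0.09 after the GC and length correction. PDHA2, the testis form of the E1 alpha subunit, fell by 4.47 (SE 1.32, adjusted p = 0.031) from 2.46 CPM, a level at most 2.02 times that of olfactory receptors in non-BCSC. It did not pass without BCSC 1 (0.0876), BCSC 3 (0.0715), non-BCSC 2 (0.0825) or non-BCSC 3 (0.11). The log2 fold changes of the other kinase, PDK3, and of PDHA1, the E1 alpha subunit that the kinases phosphorylate, were -0.35 (SE 0.12, adjusted p = 0.0514) and -0.46 (SE 0.16, adjusted p = 0.051), so neither passed. With background removed both did, without reaching the fold minimum (-0.56 and -0.68, adjusted p = 0.0109 each), and after the GC and length correction neither did (0.41 and -0.03).

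PDPR, the regulatory subunit that binds PDP1, held 277, 249 and 240 CPM in BCSC and 133, 149 and 130 CPM in non-BCSC. All BCSC libraries lay above all non-BCSC libraries, by 0.89 on the log2 scale (SE 0.11, edgeR adjusted p = 0.00078), under the fold minimum. It was 0.85 after the GC and length correction (adjusted p = 0.00273) and 0.68 with background removed (0.00274), whereas from protein-coding transcripts, which hold 67.9% of its counts in BCSC and 39.3% in non-BCSC, it was 1.48 (SE 0.74) and did not pass (0.216). DLD, the E3 subunit, had a log2 fold change of -0.81, with 158 ± 9.77 CPM in BCSC and 277 ± 9.40 in non-BCSC (edgeR adjusted p = 0.000773). It was 0.50 after the GC and length correction (0.0659) and -1.05, past the call rule, with background removed (0.000412). PDHB, PDHX and DLAT had log2 fold changes between -0.03 and 0.09 and did not pass. After the GC and length correction DLAT was 1.04 (adjusted p = 0.00232), past the call rule, PDHX was 0.87 (0.00326) and PDHB was 0.66 (0.0843).

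Of 10 genes of other pyruvate reactions 7 were tested, and 2 rose. GPT2, the mitochondrial enzyme that converts pyruvate and alanine into each other, was 83.9 ± 20.8 CPM in BCSC and 33.4 ± 9.74 in non-BCSC. It rose by 1.33 on the log2 scale (SE 0.25, edgeR adjusted p = 0.00532), was called in all 6 fits with a library left out, and was 0.81, under the fold minimum, after the GC and length correction (adjusted p = 0.0171). PCK2, the mitochondrial enzyme that makes phosphoenolpyruvate from oxaloacetate, was 13.7 ± 2.10 and 5.33 ± 0.39 CPM, rising by 1.36 (SE 0.32, adjusted p = 0.0127). It did not pass without BCSC 1 (0.0548) or BCSC 2 (0.0683), and was 0.26 after the GC and length correction. PKM, the pyruvate kinase of most tissues, which forms pyruvate in glycolysis, was 1737 ± 418 and 1454 ± 301 CPM, and its log2 fold change of 0.26 (SE 0.19) did not pass (adjusted p = 0.318), nor did -0.42 after the GC and length correction (0.102).

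Of 9 genes of the shuttles that carry cytosolic NADH electrons into mitochondria, the alternative to lactate for regenerating NAD+, 8 were tested and 1 rose. SLC25A11, the carrier that exchanges malate and oxoglutarate, held 24.9, 17.8 and 14.3 CPM in BCSC and 4.79, 1.77 and 7.48 CPM in non-BCSC. It rose by 2.03 on the log2 scale (SE 0.48, edgeR adjusted p = 0.014), did not pass without BCSC 1 (0.0552), and was 0.86 after the GC and length correction (0.127). MDH2, the mitochondrial malate dehydrogenase, had a log2 fold change of 0.94 (SE 0.28, adjusted p = 0.0301), under the fold minimum, and did not pass after the GC and length correction (0.29, adjusted p = 0.309) or with background removed (0.74, 0.0698).

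None of the 6 regulators listed met the call rule. HIF1A, which encodes the oxygen-regulated subunit of HIF1, held 2210, 2332 and 2458 CPM in BCSC and 3232, 3405 and 2826 CPM in non-BCSC. Its log2 fold change was -0.44 (SE 0.10, edgeR adjusted p = 0.0106), under the fold minimum, and it turned to 0.62 after the GC and length correction. EPAS1, which encodes the HIF2 alpha subunit, had 236 ± 18.9 and 148 ± 17.7 CPM, a log2 fold change of 0.68 (SE 0.12, adjusted p = 0.00401) that was 0.01 after that correction. These are transcript levels, and HIF1 alpha is known to be set mainly by the stability of its protein.

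**Figure D5:**
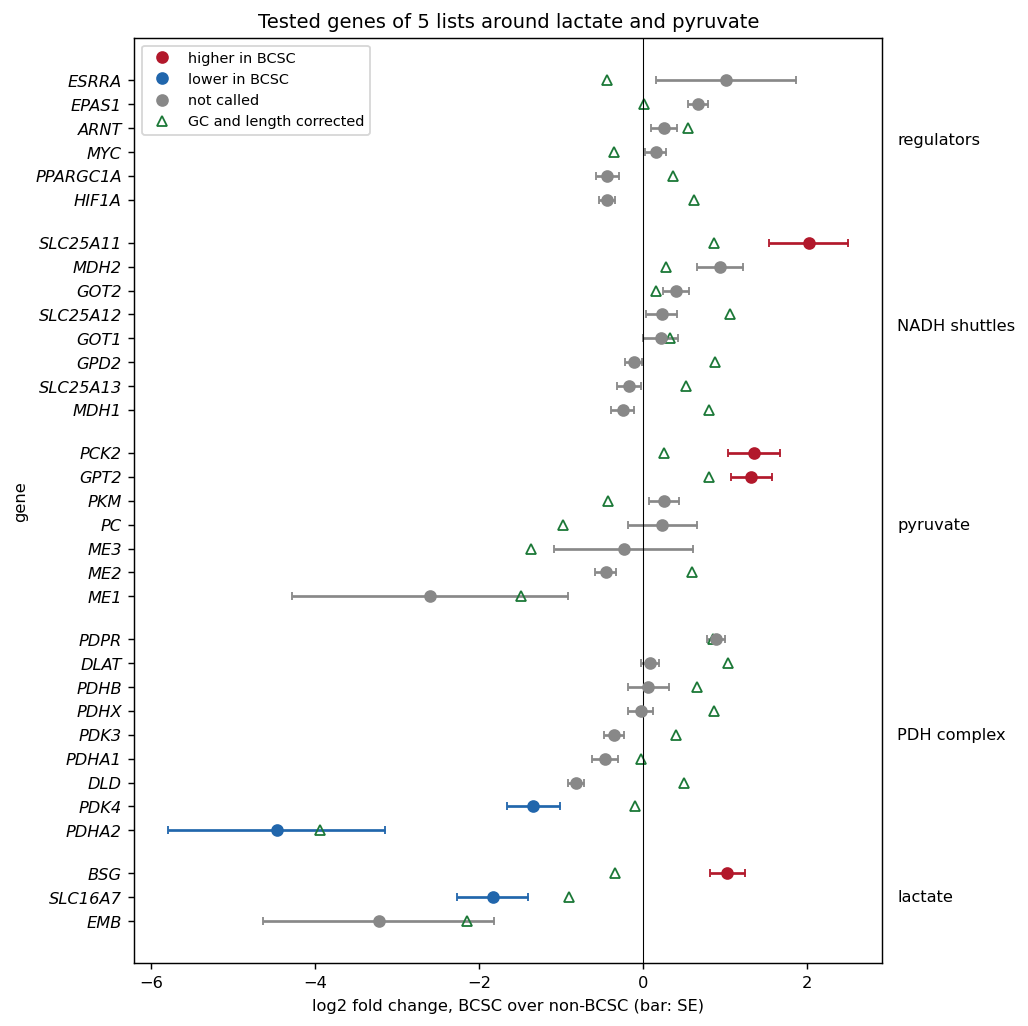
Log2 fold change, BCSC over non-BCSC, with its SE (horizontal axis) for the 33 tested genes of 5 lists, coloured where the call rule was met (red higher, blue lower), and the value after the GC and length correction (open triangles). The 4 genes called higher are BSG, GPT2, PCK2 and SLC25A11, the 3 called lower are SLC16A7, PDK4 and PDHA2, and the correction brings BSG and PDK4 below or close to 0.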

How the data were processed

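The data were lncRNA-seq libraries of sorted PTX-resistant MDA-MB-231 cells, grouped by sample title. The table the authors deposited gives an estimated count for each transcript and library, in whole numbers without scaling or filtering. The study's methods name HISAT2 and hg19 and the submitters' processing notes name HISAT2, featureCounts, DESeq2 and hg38. The file has no coordinates, so which build was used is unsettled, and the step that split reads among isoforms and the use of strand are not given in the sources used here. Of 252618 transcripts, 249616 matched GENCODE release 44 on GRCh37 by identifier, 2998 did not (0.271% of the counts) and 4 assembler-made ones were left out. Counts were summed per gene. Gene coordinates are GRCh37, and promoter sequences are from RefSeq on GRCh38.p14.

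All tests were made across all genes in edgeR 4.0.16 (R 4.3.3) with TMM scaling, filterByExpr and the robust quasi-likelihood test of group with no covariate, adjusted by Benjamini-Hochberg. The call rule needed a fold beyond 2 and an adjusted p under 0.05. SE values follow from the F statistic. The alternatives tried were DESeq2 1.42.0, RLE size factors, no filter or a minimum of 10 counts per library, blocking on replicate number, omission of each library, a loess correction for GC content and length (span 0.3), removal of a background set from olfactory receptor counts per kb, no minimum fold, transcripts as deposited and protein-coding transcripts only. Log2 ratios used a pseudocount of 0.5 counts. The fits were tested on simulated data.

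The members and gene lists were chosen with earlier results of these data known. Named were the 10 genes and their isoforms with at least 10% of a gene's counts in any library, BSG, PDK3, PDK4, PDHA1, PKM and HIF1A, up to 4 called genes of each list by smallest p (with none called, the 2 with the most counts), and overlapping genes and pseudogenes. PDPR, DLD, EMB, MDH2, PDHB, PDHX, DLAT, SLC25A12, the ALDH1A genes, the luminal and receptor genes and the untested genes of the lactate list were named after their values were seen. One marker of the leukocyte list is not reported here.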

Additional observations from a re-analysis of the deposited data

How the results depend on the processing

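Over all tested genes, 1810 were higher and 2307 lower in BCSC. The higher count moved by over 1.5 times to 3129 after the GC and length correction, 3125 with no minimum fold and 274 for transcripts as deposited. The lower count moved to 4904 with DESeq2, 1177 with at least 10 counts in every library, 1081 with background removed and 88 for transcripts as deposited. With 1 library left out the higher count ran from 959 (without BCSC replicate 1) to 2230 and the lower from 1103 (without non-BCSC replicate 3) to 3004, and without BCSC replicate 2 the lower count was 1143. Among the 33 tested genes of the other lists, the count of 4 higher was 2 after the GC and length correction, with none of the 4 among them (DLAT and SLC25A12 instead), and 7 with no minimum fold, and it ran from 1 (without BCSC replicate 1) to 5 with a library left out. The count of 3 lower was 5 with DESeq2 and with no filter, 1 after the GC and length correction (PDHA2) and 7 with no minimum fold, and it ran from 0 (without non-BCSC replicate 3) to 3. Of the ratios, the GC and length correction moved SLC16A3 to SLC16A1 from 0.71 to -1.67 and PDK1 to PDK2 from -2.12 to -0.52. It also moved PDP1 to PDP2 from 0.86 to 1.21 and PDK1 plus PDK2 to PDP1 plus PDP2 from -1.47 to -1.04. The cause of these moves was not tested. LDHA, PDK1, PDK2 and PDP1 kept their direction in all 14 alternatives run. PDK1 was close to 0 after the GC and length correction, at -0.03 (SE 0.175). MPC1 has no value from protein-coding transcripts, which had 0 counts.

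Whether the replicate numbers pair the libraries is not settled. The correlations of deviations between same-numbered libraries were 0.179, 0.0143 and 0.219. Between differently numbered libraries they ran from -0.2 to 0.0544. With a replicate block 1994 genes were higher and 2321 lower, and 4 and 4 of the other lists' genes.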
